A study of Mus musculus with 58 samples.

Results

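Aldoa, Aldoc, Tpi1, Gapdh, Pgk1, Eno1, Eno2, Pkm, Ldha and Ldhb encode enzymes of glycolysis, and Aldoa is also 1 of the genes of the interval deleted in 16p11.2 del/+ mice. These 10 genes were chosen by name and are 10 of the 54532 genes in the RNA-seq tables and 10 of the 18411 genes in the tables of lysate RNA and ribosome footprints. All 10 are present in all 6 count tables.

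RNA was measured in the striatum of 2 mouse lines, and ribosome footprints were measured in males. 16p11.2 del/+ mice carry 1 copy of the mouse interval that corresponds to human 16p11.2, Aldoa included; they were bought from The Jackson Laboratory. 3g del/+ mice were made with CRISPR/Cas9 in zygotes and carry premature stops in Taok2, Sez6l2 and Mvp on 1 chromosome, so both Aldoa copies remain. Controls were wt littermates of each line. The strain label is B6129S throughout, while the zygotes edited to found the 3g line came from C57BL/6J sires. RNA-seq covered 4 libraries per genotype and sex in each line, from animals of 10 to 14 weeks, an age given for experiments without another one stated. Lysate RNA and footprint libraries were made in parallel from the same lysate of 3 del/+ and 4 wt males of the 16p11.2 line and of 3 del/+ and 3 wt males of the 3g line, whose age is not given in the sources used here.

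In glycolysis, aldolase splits fructose bisphosphate into a pair of triose phosphates, which the later enzymes turn into pyruvate and, through lactate dehydrogenase, into lactate. Several steps have isozymes that differ between cell types of the brain. Aldoa is the widely expressed aldolase and Aldoc is a marker of astrocytes, Eno1 is the widely expressed enolase and Eno2 the neuronal enolase, and Ldha and Ldhb encode the subunits of the lactate dehydrogenase tetramer.

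RNA-seq libraries held 11711099 to 65529807 counts, lysate RNA libraries 15102576 to 19122488, and footprint libraries 342052 to 678130. The top 10 genes of a library held 5.8 to 8.5% of its counts in RNA-seq, 35.4 to 48.9% in lysate RNA and 10.9 to 38.3% in footprints. 16p11.2 del/+ female 1 had 17 Xist counts, against 10364 to 32984 in the other females of that line, and 3898 counts over 4 Y-linked genes, against 0 in them, so its sex goes against the label. The library 16p11.2 del/+ male 4 stood furthest from the others of its table (median Pearson r of 0.980 across genes), and 3g wt male 17 did so in the other RNA-seq table (0.983). Values without these libraries stand beside the results they bear on most. No source says that libraries came from separate litters or dissection days, so p-values measure the spread between these libraries.

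Aldoa RNA was lower in 16p11.2 del/+ striatum of both sexes. Aldoa lies at chr7:126795234-126800994 (GRCm38.p6, the build of the RNA-seq counts), inside the deleted interval. In males its level was 691, 756, 628 and 615 TMM-normalised CPM (counts scaled to a common library size) in the 4 del/+ libraries and 1707, 1461, 1379 and 1784 CPM in the 4 wt libraries. In females it was 670.5, 722, 652 and 618 CPM in del/+ and 1321, 1419.7, 1549 and 1369.8 CPM in wt. The groups did not overlap in either sex, and the highest del/+ library stood far below the lowest wt library.

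The log2 fold change of Aldoa was -1.24 in 16p11.2 del/+ males (SE 0.12, 95% interval -1.51 to -0.96, adjusted p = 0.00128, edgeR quasi-likelihood test with Benjamini-Hochberg adjustment over 17957 genes). In females it was -1.09 (SE 0.09, interval -1.28 to -0.89, adjusted p = 0.000101 over 18067 genes). The remaining level was thus 42.5% of wt in males (interval 35.2 to 51.2%) and 47.1% in females (41.1 to 53.8%). A called gene is 1 with an adjusted p under 0.05, and 0.106% of all genes tested were called in males and 0.144% in females. The 2-sided exact permutation test on log2 CPM gave p = 0.0286 in each sex, the smallest that 4 against 4 libraries allow. Without male 4, Aldoa stood at -1.20 in males (adjusted p = 0.00397), and without the library labelled female 1 it stood at -1.09 in females (adjusted p = 0.000614). In bulk tissue, fewer cells of a type and less RNA per cell cannot be told apart.

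**Figure D1:**
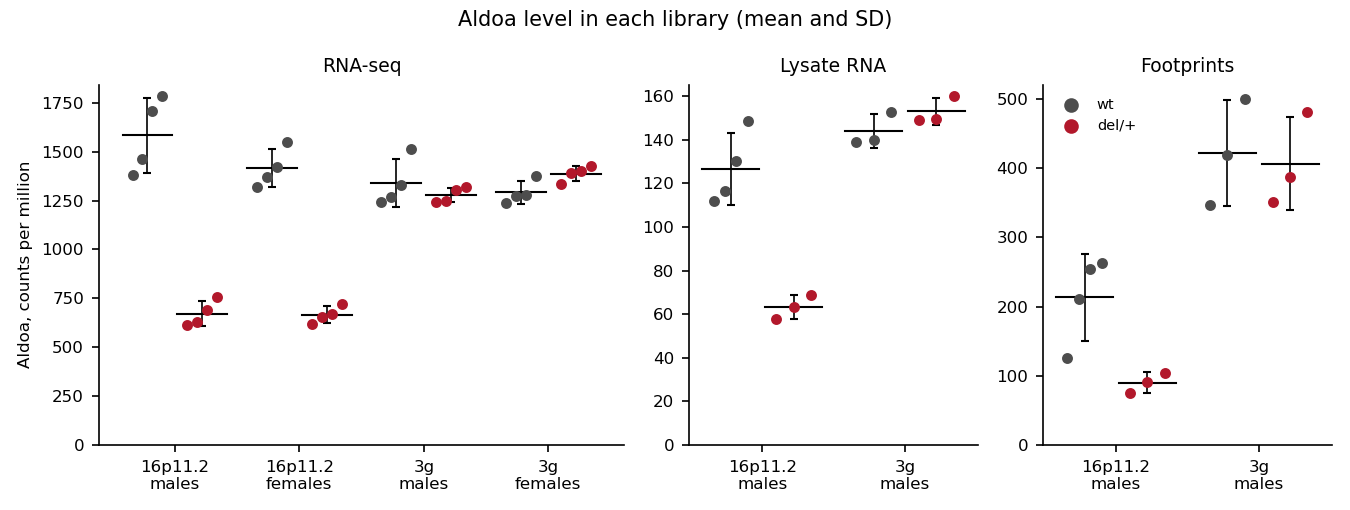
Aldoa level per library (TMM-normalised CPM, axes from 0) in wt (grey) and del/+ (red), with lines for the mean and bars for the SD. The 16p11.2 del/+ points lie below every wt point in RNA-seq of both sexes, in lysate RNA and in footprints, while the 3g del/+ and wt points overlap in all 4 comparisons.

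The separate lysate libraries gave the same direction. In lysate RNA of the 16p11.2 line, Aldoa was at 68.9, 63.4 and 57.9 CPM in the 3 del/+ males and at 149, 116, 112 and 130.0 CPM in the 4 wt males. The groups did not overlap. The log2 fold change was -0.999 (SE 0.12, interval -1.26 to -0.74, adjusted p = 0.00391), or 50.02% of wt, beside 0.133% of all genes called in that comparison.

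Ribosome footprints of Aldoa were few, and they too were lower in 16p11.2 del/+ males. The deposited counts were 33, 27 and 35 footprints in del/+ libraries RIBO-504, RIBO-506 and RIBO-516, and 91, 53, 103 and 145 in wt libraries RIBO-498, RIBO-499, RIBO-505 and RIBO-517. Scaled by depth these were 90.9, 75.1 and 104 CPM against 254, 126, 211 and 263 CPM, again without overlap. The log2 fold change was -1.25 (SE 0.25, interval -1.76 to -0.74, adjusted p = 0.0228), or 42.1% of wt, and 0.117% of the genes tested in footprints were called. The call rests on all libraries together: leaving out any 1 of them but RIBO-499 kept the value between -1.36 and -1.12 but raised the adjusted p to between 0.0667 and 0.322. The exact permutation test gave p = 0.0571 in lysate RNA and in footprints, the smallest that this 2-sided test can give for 3 against 4 libraries.

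Footprints per RNA, the translational efficiency, showed no called difference for Aldoa. Footprint CPM over lysate RNA CPM was 1.32, 1.18 and 1.80 in 16p11.2 del/+ males and 1.71, 1.08, 1.89 and 2.03 in wt males, and the groups overlapped. The log2 difference in translational efficiency was -0.34 (SE 0.28, interval -0.91 to 0.24, adjusted p = 0.917, edgeR interaction term of genotype and library type). The interval is wide, and 0.00664% of all genes were called in that test, which did not pair the libraries of an animal. With the animal as a block in the edgeR fit, the difference for Aldoa was -0.32 (adjusted p = 0.968), and 10 of 15071 genes were called.

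In the 3g line, where Aldoa is not deleted, no comparison called it. In RNA-seq of males it was at 1301, 1242, 1249.7 and 1319.8 CPM in del/+ and at 1514, 1243, 1268 and 1331 CPM in wt, a log2 fold change of -0.07 (interval -0.25 to 0.12, adjusted p = 0.974). In females it was at 1425, 1402, 1392 and 1333 CPM in del/+ and at 1279.8, 1239, 1276 and 1374 CPM in wt, a log2 fold change of 0.10 (interval 0.01 to 0.19, unadjusted p = 0.0268, adjusted p = 0.391). The groups overlapped in both sexes. Without wt male 17, the highest of the wt males, the male value was -0.00 (adjusted p = 1.00).

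Lysate RNA of the 3g line had 149, 160.2 and 149.6 CPM of Aldoa in del/+ males and 153, 139.96 and 139 CPM in wt males, a log2 fold change of 0.09 (interval -0.12 to 0.30). Its footprint counts were 172, 314 and 195 in del/+ males and 146, 185 and 123 in wt males, where the del/+ libraries were also deeper (527917 to 678130 counts in total against 342052 to 422918). Per depth these were 387, 481 and 351 CPM against 419, 499.4 and 347 CPM, a log2 fold change of -0.05 (interval -0.55 to 0.44). The groups overlapped in both, and the log2 difference in translational efficiency was -0.11 (interval -0.59 to 0.38, adjusted p = 0.950). With the animal as a block in the edgeR fit, that difference was -0.11 (adjusted p = 0.981).

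Over all genes, the 3g comparisons called 0% of genes in RNA-seq of males (274 of 19081 at an unadjusted p under 0.05, and 1 called by DESeq2). They called 0.00526% in RNA-seq of females, 0.0209% in lysate RNA, 0.0132% in footprints and 0% in translational efficiency (1161 of 15137 at an unadjusted p under 0.05, and 20 called by DESeq2 among the 1628 genes to which it gave an adjusted p).

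The effect of genotype on Aldoa differed between the lines by test. In 1 fit over the counts of both RNA-seq tables, the 16p11.2 effect minus the 3g effect was -1.16 in males (SE 0.15, interval -1.47 to -0.85, adjusted p = 0.00156) and -1.19 in females (SE 0.09, interval -1.38 to -0.99, adjusted p = 7.33e-07). That test called 0.077% of all genes in males and 0.128% in females, and none of the other 9 enzymes in either. The male effect minus the female effect was -0.15 in the 16p11.2 line (interval -0.45 to 0.15, adjusted p = 0.851) and -0.18 in the 3g line (interval -0.37 to 0.01, adjusted p = 0.901). The 16p11.2 female group holds the library labelled female 1, whose sex genes go against its label. Without it the line difference in females was -1.19 (adjusted p = 3.15e-06) and the 16p11.2 sex difference was -0.15 (adjusted p = 0.788). Without 3g wt male 17 the 3g sex difference was -0.11 (adjusted p = 1.00). No gene passed that test in either line (0% and 0%), with 818 and 533 genes at an unadjusted p under 0.05 and 3 and 0 called by DESeq2. Ldha alone of the other enzymes had an unadjusted p under 0.05, in the 3g line (difference -0.36, adjusted p = 0.901), and without 3g wt male 17 that difference was -0.21 (adjusted p = 1.00).

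Within the deleted interval, the fold change of Aldoa was among the lower ones in RNA-seq and near the middle in lysate RNA. Of 27 genes listed for the interval beside Aldoa, 22 could be tested in RNA-seq of each sex and in lysate RNA, and 10 in footprints. From the lowest value, Aldoa ranked 4 of 23 in males, 5 of 23 in females, 13 of 23 in lysate RNA and 2 of 11 in footprints. The median log2 fold change of the others was -1.04, -1.05, -1.06 and -1.10 in these comparisons. With Aldoa included, 15, 17, 14 and 2 genes were called, all lower in del/+. The second gene called in footprints was Maz, a zinc finger transcription factor, at -1.09 (SE 0.22, adjusted p = 0.0251).

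**Figure D2:**
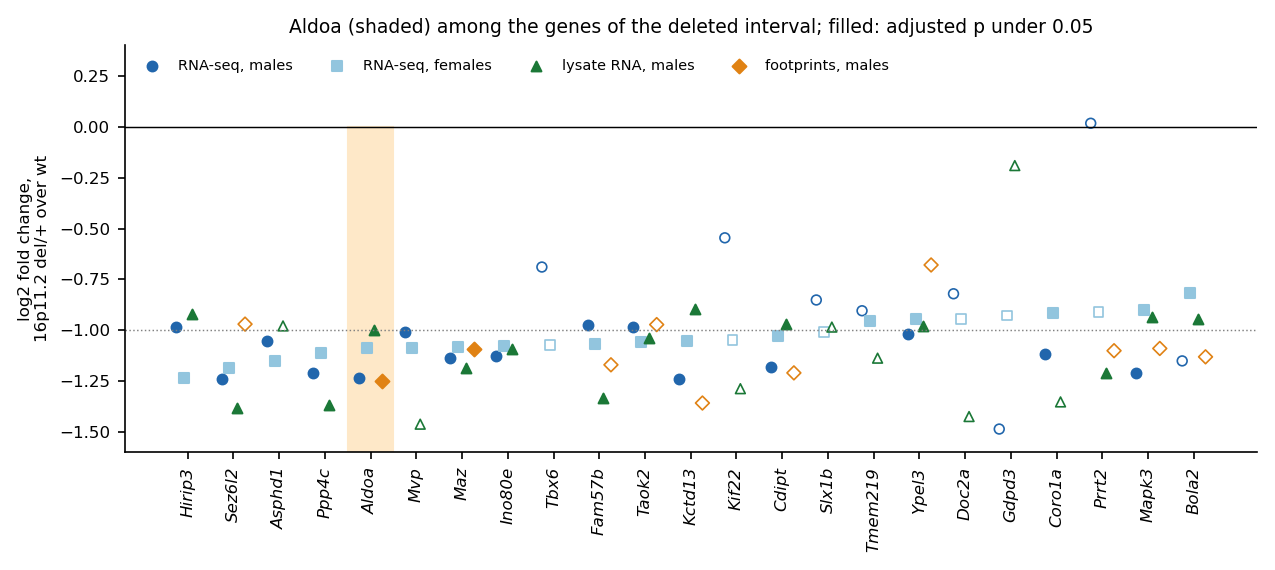
Log2 fold change of each tested gene of the deleted interval in the 4 comparisons of 16p11.2 del/+ with wt, ordered by the value in females, with Aldoa shaded, filled symbols for an adjusted p under 0.05 and a dotted line at -1. Aldoa lies near the median of the others (-1.06) in lysate RNA and toward the lower end in RNA-seq and footprints.

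The genes whose log2 CPM followed Aldoa most closely over the 16 RNA-seq libraries of the 16p11.2 line were Cdipt (Pearson r = 0.996), Tbc1d10b (0.990), Sez6l2 (0.982), Coro1a (0.976) and Cd2bp2 (0.9746). Cdipt, Sez6l2 and Coro1a are in the list of the interval's genes. Tbc1d10b (chr7:127197459-127208468) and Cd2bp2 (chr7:127191660-127196077) are not in that list and start 331.8 and 326 kb from the start of Taok2 in the same build. Whether the deletion spans these genes as well was not tested. The other glycolytic enzymes had r between 0.23 and 0.71, with Pkm the closest of them (rank 122 of 18870 genes) and Aldoc the furthest. In the 16 RNA-seq libraries of the 3g line the closest genes were Tango2 (0.951), Cnih3 (0.950), Diras2 (0.947), Rap1gds1 (0.943) and Slc25a22 (0.931). There the other enzymes ranged from 0.21 for Pkm to 0.82 for Pgk1. The libraries of a line differ in genotype and sex, and the sources used here do not give their dissection days or sequencing runs, so the values are a description.

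None of the 9 other enzymes was called in any comparison of del/+ with wt or of translational efficiency, by edgeR or by DESeq2. In RNA-seq of 16p11.2 males, 0 of 9 had an unadjusted p under 0.05, although all 9 values were below 0, from -0.25 for Aldoc to -0.09 for Eno1, with a median of -0.21 beside -0.01 over all genes. Without del/+ male 4 the median of the 9 was -0.12 and the lowest was -0.20 (Pkm). In females 5 of 9 values were below 0, from -0.26 (Eno1) to 0.13 (Aldoc), with a median of -0.00. Without the library labelled female 1, 3 of 9 were below 0 and the range was -0.23 to 0.23.

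**Figure D3:**
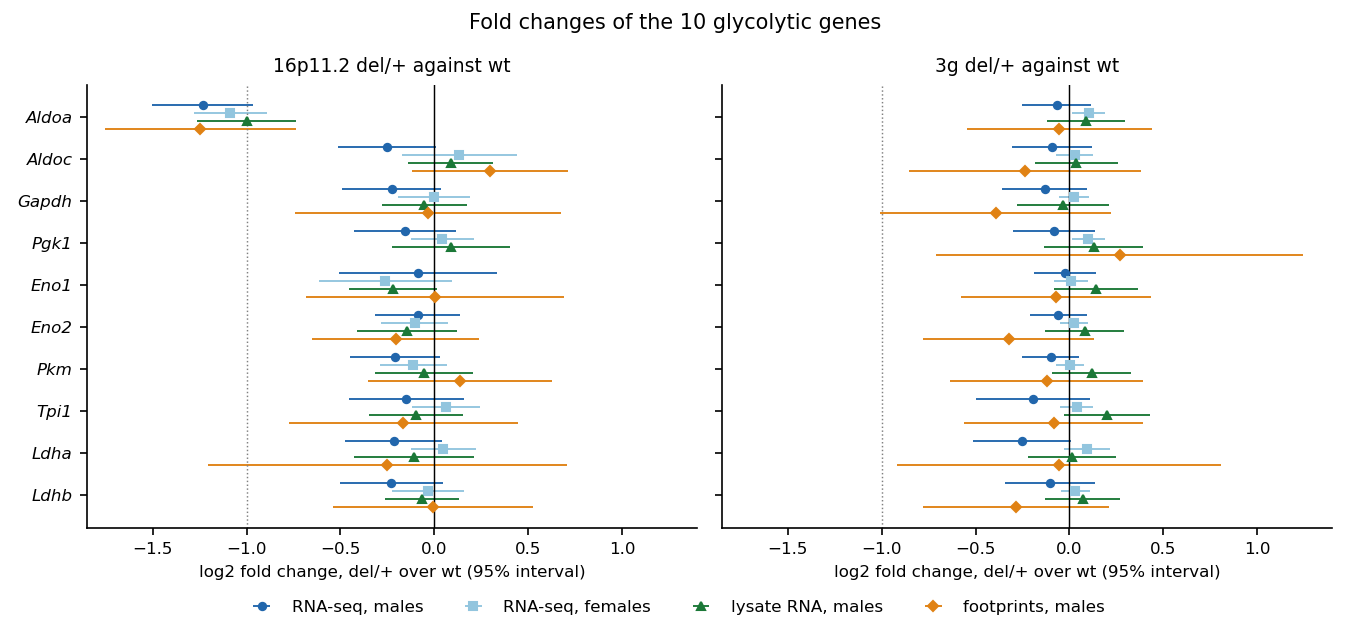
Log2 fold change of each of the 10 enzymes in 16p11.2 del/+ (left) and 3g del/+ (right) against wt, as points with 95% intervals, for RNA-seq of males and females, lysate RNA and footprints, with a dotted line at -1. Aldoa stands apart in the 16p11.2 line, from -1.25 to -0.999, and all other values lie between -0.39 and 0.30.

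Aldoc, the aldolase isozyme that performs the same step, had no called change in 16p11.2 del/+ striatum. Its log2 fold change was -0.25 in males (interval -0.51 to 0.01), 0.13 in females (-0.17 to 0.44), 0.09 in lysate RNA (-0.14 to 0.32) and 0.30 in footprints (-0.12 to 0.71).

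The ratio of Aldoa to Aldoc counts within a library compares the isozymes free of the scaling between libraries. In RNA-seq of males it was 0.780 to 1.02 in 16p11.2 del/+ and 1.74 to 1.85 in wt, and in females 0.649 to 0.997 against 1.56 to 2.197. In lysate RNA it was 0.606 to 0.638 against 1.15 to 1.48, and in footprints 0.393 to 0.455 against 0.841 to 1.49. No group overlapped its control, and the mean log2 ratio differed by -0.98, -1.22, -1.08 and -1.50 in these comparisons. The highest female del/+ ratio was that of the library labelled female 1, and without it the del/+ ratios reached 0.836 and the difference in females was -1.32.

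The exact permutation test on these ratios gave p = 0.0286 in RNA-seq of each sex and p = 0.0571 in lysate RNA and in footprints. Each was 0.229 after Benjamini-Hochberg adjustment over the 24 isozyme ratios tested. With so few libraries per group, no adjusted p under 0.05 was possible over these 24 ratios. In the 3g line the differences in the same ratio were 0.02, 0.07, 0.05 and 0.08. The ratios of Ldha to Ldhb and of Eno1 to Eno2 gave no p under 0.05 by the exact permutation test in any of the 8 comparisons. In lysate RNA and footprints of both lines none was possible. There the smallest p of this test is 0.0571 with 3 against 4 libraries and 0.1 with 3 against 3. The ratio nearest to 0.05 was Ldha to Ldhb in 3g males, lower by a log2 difference of -0.15 (exact permutation p = 0.0571, adjusted 0.229).

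**Figure D4:**
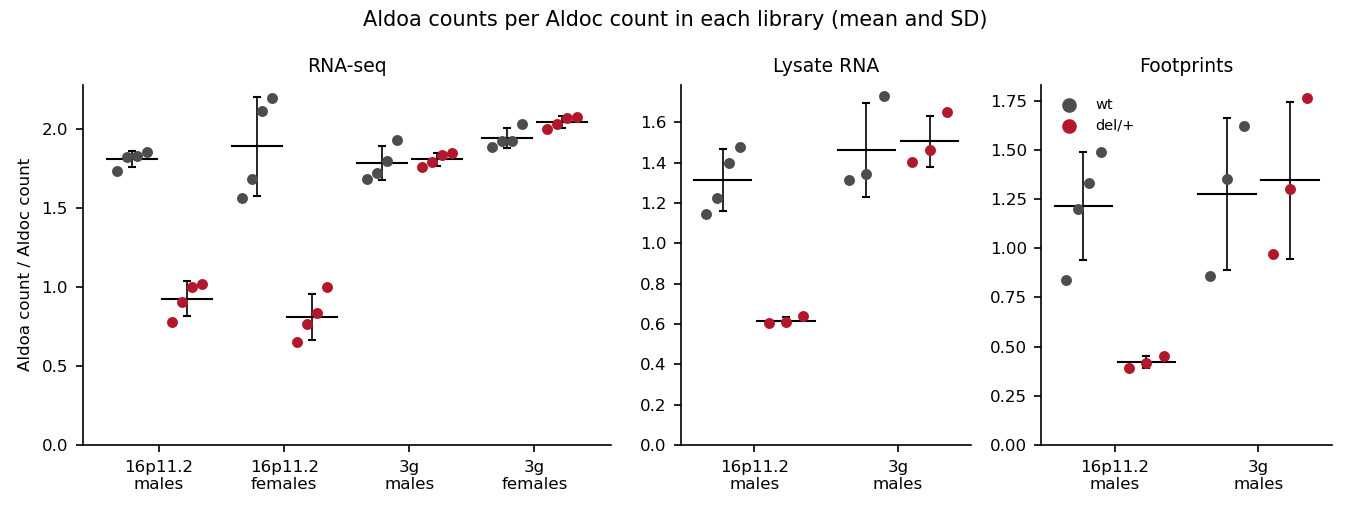
Aldoa counts per Aldoc count in each library (axes from 0), in wt (grey) and del/+ (red), with lines for the mean and bars for the SD. The 16p11.2 del/+ libraries reach at most 1.02 in RNA-seq and their wt libraries start at 1.56, whereas the 3g groups overlap.

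The enzymes after aldolase are given here in the order of the pathway. Tpi1, triose phosphate isomerase, which interconverts the trioses that aldolase makes, had log2 fold changes of -0.15 in 16p11.2 males, 0.06 in females, -0.10 in lysate RNA and -0.17 in footprints. Gapdh, which oxidises glyceraldehyde phosphate and is often used as a reference gene, stood at -0.23 (interval -0.49 to 0.04) in males, -0.00 in females, -0.05 in lysate RNA and -0.04 in footprints. None of these 8 values was called.

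Pgk1, phosphoglycerate kinase, which makes ATP and is encoded on the X chromosome, stood at -0.15 in 16p11.2 males, 0.04 in females and 0.09 in lysate RNA. Its footprints were too few for the test in that line, with 1 to 3 counts per del/+ library and 1 to 12 per wt library. In the fit that combined footprints with lysate RNA, its log2 difference in translational efficiency was -1.67 (interval -3.11 to -0.23, unadjusted p = 0.0244, adjusted p = 0.764), on the same few counts.

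The enolases, which form phosphoenolpyruvate, stood at -0.09 (Eno1) and -0.09 (Eno2) in 16p11.2 males, at -0.26 and -0.10 in females, at -0.22 and -0.15 in lysate RNA and at 0.01 and -0.21 in footprints. Eno1 varied more between libraries of 1 group than the others did, from 354 to 699 CPM in wt males. Its counts may be split with Eno1b, a near-identical gene, and with both summed the values for Eno1 were -0.11, -0.19 and -0.15 in males, females and lysate RNA, and -0.10 in footprints, where the sign turned.

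Pkm, the pyruvate kinase of brain and muscle, stood at -0.21 (interval -0.45 to 0.03) in 16p11.2 males, -0.11 in females, -0.05 in lysate RNA and 0.14 in footprints. Ldha, the lactate dehydrogenase subunit that is abundant in muscle, stood at -0.21, 0.05, -0.11 and -0.25 in the same order. Ldhb, the subunit that is abundant in heart, stood at -0.23, -0.03, -0.07 and -0.01. In males Ldhb was the only 1 of the 9 whose groups did not overlap in RNA-seq of that line, with 397 to 589 CPM in del/+ and 595 to 642 CPM in wt, and its adjusted p was 0.742. The share of all genes whose groups did not overlap was not counted.

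In the 3g line the same 9 enzymes ranged from -0.25 (Ldha) to -0.02 (Eno1) in males, with all 9 below 0, and from 0.00 (Pkm) to 0.10 (Pgk1) in females, with 0 below 0. In females Pgk1 alone had an unadjusted p under 0.05 in the edgeR fit (adjusted p = 0.391). In these females the 4 cortical neuron markers had values of 0.71 to 0.87 (0 of 4 at an unadjusted p under 0.05), and summed to 159.9 to 629.8 CPM in del/+ and 113 to 561 CPM in wt. The 6 pan-neuronal markers had a median of 0.25 (4 of 6 at an unadjusted p under 0.05), and the 7 oligodendrocyte markers lay between -0.20 and -0.11 (3 of 7). None of these markers was called, none was at 0 in either group, and their part in the female values of Aldoa and the 9 enzymes was not tested. Of the other lists in these females, the choroid plexus median was -0.38 (2 of 4 tested markers at an unadjusted p under 0.05, lowest -3.02). The astrocyte median was -0.05 (2 of 8). The striatal neuron, microglia and endothelial lists had 1 such marker each and the blood list 0. None of these was called either, and their part was not tested. In lysate RNA the 9 enzymes ranged from -0.04 (Gapdh) to 0.20 (Tpi1), and in footprints from -0.39 (Gapdh) to 0.27 (Pgk1). The groups did not overlap for Pkm in males (1005 to 1088 CPM in del/+ and 1099 to 1169 CPM in wt) and for Eno2 in footprints (323 to 385 CPM against 439 to 456 CPM), without a call for either. How many of all genes had groups without overlap in these comparisons was not counted.

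The male values of the 3g line moved with a single wt library. Without wt male 17 the 9 enzymes ranged from -0.12 (Ldha) to 0.02 (Pgk1), with a median of -0.03 and 6 below 0. In that library the 4 cortical neuron markers, all with counts in both groups, summed to 892 CPM against 34.9 to 345 CPM in the other 7 male libraries. Its 7 oligodendrocyte markers summed to 11545 CPM against 4459 to 7199 CPM, and its 6 pan-neuronal markers to 4271 CPM against 2883 to 3239.6 CPM. Their part in the result was not tested.

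Footprints per RNA could be read for the 10 enzymes within wt males alone, without genotype. On a scale where the median over all genes was near 0 (-0.03 in the 16p11.2 line and -0.01 in the 3g line), the enzymes were read in each line. In wt males of the 3g line 8 of 10 were called and all 8 were higher, beside 44.3% of all genes called in either direction and 20.6% called higher. The log2 footprint over RNA values were 0.86 for Aldoa, 1.20 for Aldoc, 0.50 for Tpi1, 0.73 for Gapdh, 0.82 for Eno1, 0.84 for Eno2, 0.73 for Pkm and 1.25 for Ldhb. Pgk1 (-0.24) and Ldha (0.06) were not called.

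In wt males of the 16p11.2 line 3 of 10 were called, all higher, beside 46.6% of all genes called and 21.4% called higher. These were Aldoc at 0.48 (adjusted p = 0.00769), Eno2 at 0.81 (adjusted p = 0.000108) and Ldhb at 0.67 (adjusted p = 0.00476). Aldoa stood at 0.39 (interval 0.02 to 0.76, adjusted p = 0.0819). With the animal as a block, since both libraries of an animal came from 1 lysate, Aldoa was at 0.37 and called (adjusted p = 0.0125), which made 4 of 10. In the 3g line the block left 7 of 10, as Tpi1 at 0.49 was not called (adjusted p = 0.0735).

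Single animals moved these counts. Without the wt animal of RIBO-517 only Eno2 of the 10 was called in the 16p11.2 line, and without the wt animal of RIBO-301 the count in the 3g line was 5 of 10. The difference between the lines was not tested.

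**Figure D5:**
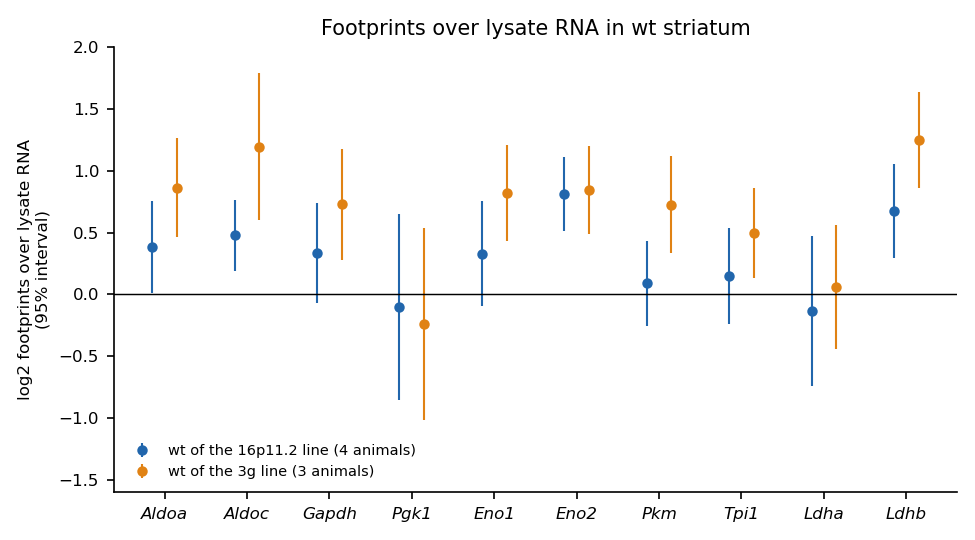
Log2 footprints over lysate RNA of each enzyme in wt males of the 16p11.2 line (blue, 4 animals) and of the 3g line (orange, 3 animals), as fitted values with 95% intervals. In the 3g line 8 of 10 intervals lie above 0, and Pgk1 and Ldha span 0 in both lines.

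Genes around the core pathway were read from 5 lists, of 18 other glycolytic enzymes, 12 regulators and gluconeogenic enzymes, 10 glucose and lactate transport genes, 13 genes of pyruvate entry into mitochondria and 11 hypoxia-responsive genes. In this order 15, 9, 10, 13 and 11 of them had enough counts for the test in 16p11.2 RNA-seq, and 6, 5, 5, 8 and 6 in 16p11.2 footprints. No gene tested was called in any of the 8 comparisons of del/+ with wt or in translational efficiency. In the 16p11.2 comparisons of del/+ with wt the medians of the 5 lists lay between -0.11 and 0.11, beside medians over all genes of -0.01 to 0.00, and in translational efficiency they lay between -0.26 and 0.04.

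The most abundant other glycolytic enzymes were Gpi1, phosphoglucose isomerase, and Pfkm, a phosphofructokinase. Gpi1 stood at 0.01 in 16p11.2 males, -0.16 in females (unadjusted p = 0.0462), -0.05 in lysate RNA and -0.35 in footprints. Pfkm stood at -0.10, -0.04 and -0.04 in RNA and at 0.90 in footprints (SE 0.29, unadjusted p = 0.00443, adjusted p = 0.430).

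Gpd1, the cytosolic glycerol phosphate dehydrogenase, which uses a product of aldolase, stood at -0.18 in 16p11.2 males, -0.04 in females and -0.06 in lysate RNA. Its mitochondrial partner Gpd2 stood at -0.17, -0.19 (unadjusted p = 0.0349) and -0.23. Bsg, the chaperone of the lactate transporters, stood at -0.24 in males (unadjusted p = 0.0425), 0.04 in females and -0.07 in lysate RNA, and Slc2a3, the neuronal glucose transporter, at -0.08, 0.02 and -0.12.

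Of pyruvate entry, Pdha1, a subunit of pyruvate dehydrogenase, stood at -0.08, 0.09 and -0.00 in males, females and lysate RNA, and Pdp1, a phosphatase that activates the enzyme, at -0.11, -0.05 and 0.16. Of the hypoxia-responsive genes, Ndrg1 stood at -0.15, -0.03 and -0.00 and Egln1, an oxygen-sensing prolyl hydroxylase, at -0.07, 0.07 and 0.13.

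Cell composition was read from 9 marker lists, none with a called gene among those tested in any comparison of del/+ with wt. In footprints, 0 genes of the endothelial list (16p11.2 line) and of the choroid plexus list (both lines) could be tested. Their median log2 fold changes in the 16p11.2 comparisons lay between -0.31 (choroid plexus, lysate RNA) and 0.67 (blood, RNA-seq of females, with 3 of 4 markers at an unadjusted p under 0.05), and Folr1 of the choroid plexus list, in 3g footprints, was the single marker at 0 in a comparison. The 10 striatal neuron markers, led by Ppp1r1b and Pde10a, had counts in every group and summed to 4649.6 to 7318 CPM in 16p11.2 del/+ males and 5783 to 7218 CPM in wt males. The 8 astrocyte markers summed to 4116 to 4643 CPM against 4269 to 5641 CPM in these males, and all 8 had values below 0, with a median of -0.16. In females the astrocyte median was 0.14. The Aldoc values of -0.25 and 0.13 had the same signs, while in footprints the astrocyte median was -0.20 and Aldoc stood at 0.30. The part of astrocytes in them was not tested.

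Aldoa has near copies that could share its reads. The counts of Aldoart1, a testis-type retrogene of Aldoa, were 0.03 to 0.17% of those of Aldoa in RNA-seq and 4.68 to 7.90% in lysate RNA. Its log2 fold change in the 16p11.2 line was -1.21 in males, -1.39 in females and -0.88 in lysate RNA (unadjusted p = 0.00249, 0.00106 and 0.00147, adjusted p = 0.742, 0.446 and 0.5677), although it lies on chromosome 4, outside the deleted interval. A second gene model named Aldoa had -0.84 in males and -0.87 in females (adjusted p = 0.742 and 0.828). With these copies added to Aldoa its values were -1.23 in males, -1.09 in females, -0.99 in lysate RNA and -1.23 in footprints.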

How the data were processed

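Gene counts were deposited by the authors in 6 tables: RNA-seq of each line (16 libraries each), lysate RNA and ribosome footprints. The submitters' processing notes name HTSeq and mm10 for RNA-seq, which the study ran with bcbio-nextgen, and Bowtie2 and mm39 for lysate RNA and footprints, with versions not given in the sources used here. The labels name polyA RNA, a Ribo-Zero kit and human brains together, and a read length that differs from the study's methods. The counts are not normalized, except that all 22 lysate counts of 7 or more digits end in 0 and so appear rounded. Every column matched a library.

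Libraries were grouped by their labels. Each line, sex and library type was fitted separately in R 4.3.3 with edgeR 4.0.16 (filterByExpr, TMM scaling, quasi-likelihood F test) on the whole table, with Benjamini-Hochberg adjustment over all genes passing the filter and a threshold of 0.05. Translational efficiency and differences between lines or sexes were interaction terms. Level differences of Aldoa and isozyme ratios were tested by 2-sided exact permutation over libraries. Intervals are 95%. Depth was 11711099 to 65529807 counts in RNA-seq, 15102576 to 19122488 in lysate RNA and 342052 to 678130 in footprints, so footprint values of single genes rest on few counts.

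Alternatives were DESeq2 1.42.0, its size factors in edgeR (RLE), no filter on low counts, all 16 RNA-seq libraries of a line in 1 fit, a replicate block and leaving out each library. Near copies summed was chosen after seeing the data. Footprint and lysate libraries of 1 animal are paired by the labels, and their deviations from group means correlated at 0.0458 to 0.125 across genes. Symbols matched 54409 of 54532 and 18377 of 18411 gene identifiers. All 10 enzymes are named, together with the 2 most abundant genes of each pathway list, the 5 genes most correlated with Aldoa and the near copies. The enzymes and lists were chosen with earlier results of these data known. The scripts were tested on simulated data.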

Additional observations from a re-analysis of the deposited data

Results flagged for a closer look

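In 10 of 100 groups of 4 libraries a single library stood apart from the other 3 by Dixon's 95% criterion. For independent groups chance gives about 1 in 20. The 10 enzymes were read in the same libraries, so these groups are not independent and their number cannot be set against that rate. The library 3g wt male 17 accounted for 6 of them, with Aldoc at 899.8 CPM (others 689 to 721), Gapdh at 1718 (1285 to 1342), Pgk1 at 253 (191 to 199.7), Tpi1 at 702 (455 to 473), Ldha at 306 (209 to 225) and Ldhb at 644 (472 to 480.5). Its Aldoa level of 1514 CPM was also the highest of its group but was not singled out by the criterion. In 3g del/+ female 37, Pgk1 was at 197 CPM (others 206 to 207) and Ldha at 199 CPM (222 to 225). Ldhb was at 537 CPM in 16p11.2 wt female 4 (others 577 to 585) and at 458 CPM in 3g del/+ male 27 (489 to 494).

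The effect of genotype on Aldoa differed between the 2 lines by an interaction test, at -1.16 in males and -1.19 in females on the log2 scale. Aldoa is deleted in the 16p11.2 line and not in the 3g line.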

How the results depend on the processing

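Aldoa kept its direction and its call in RNA-seq and lysate RNA of 16p11.2 del/+ under every alternative, between -1.30 and -0.91, and no other enzyme was called in any comparison of del/+ with wt or of translational efficiency. In footprints of that line, leaving out 1 library gave -1.42 to -1.12 for Aldoa and 0 to 1 enzymes called, with the call kept only without RIBO-499 (adjusted p = 0.00153). In 3g footprints, where Aldoa was not called, its value was 0.0091 without a filter and -0.19 to 0.087 with 1 library left out, and its translational efficiency ran from -0.22 to 0.057. Footprints over RNA of Aldoa in 16p11.2 wt males, not called as reported, were called at 0.45 with RLE scaling (adjusted p = 0.0439), 0.37 with the replicate block and 0.45 with near copies summed, where 5 enzymes were called, and ran from 0.28 to 0.53 with 1 animal left out. The number of enzymes called ran from 1 to 4 in that line and from 5 to 8 in the 3g line with 1 animal left out. Deviations of 16p11.2 RNA-seq libraries with the same replicate number correlated at -0.256 to 0.107. Libraries known to come from 1 animal reached only 0.0458 to 0.125, so these values cannot settle whether the numbers mark pairs. With the replicate block Aldoa stood at -1.23 in males and -1.09 in females, with 14 genes called against 19 and 22 against 26, and the block changed no other call of an enzyme but Tpi1 and Aldoa in footprints over RNA. Of 1931 values of the other 9 enzymes under an alternative, 115 changed sign, none of them a called value, with sizes of up to 0.35. Counts over all genes moved more. DESeq2 called 30 against 19 (16p11.2 males), 49 against 26 (females), 31 against 19 and 14 against 7 (lysate RNA and footprints), 118 against 1 (3g females), 13 against 3, 9 against 1 and 54 against 25 (3g lysate RNA, 3g footprints, difference between lines in females), 1 against 0 (3g males) and 3 against 0 (sexes, 16p11.2 line). In translational efficiency it called 6 against 1 and 20 against 0, and the block called 10 in each line. Without a filter the counts were 45 in 16p11.2 females, 43 in footprints, 158 in 3g females, 9 in 3g lysate RNA, 127 in 3g footprints, and 2 and 1 in translational efficiency. With all 16 libraries in 1 fit, 3g males had 1. Footprint depth limits the precision of every footprint value.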

Other observations

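The share of Eno1b in the summed counts of Eno1 and Eno1b fell into separate bands in the RNA-seq libraries of the 16p11.2 line: 2 libraries had 0.07 to 0.13%, 9 had 6.53 to 7.51% and 5 had 15.8 to 16.7%. In the 3g line 15 libraries had 5.25 to 7.09%, and wt male 17 had 10.6%. In lysate RNA the share was 39.7 to 51.8%. The bands held libraries of both genotypes, and the cause was not tested.

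Gapdh counts per Aldoa count in wt libraries had a median of 0.976 and 0.987 in RNA-seq of 16p11.2 males and females and of 1.05 and 1.03 in those of the 3g line. In the tables of lysate RNA the medians were 0.224 and 0.211, and in footprints 0.221 and 0.200, for the 16p11.2 and 3g lines. These libraries differ in preparation, genome build and counting, whose parts cannot be told apart.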
